A study of Homo sapiens with 12 samples.

Results

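The 10 genes described here encode feedback regulators of mitogen-activated protein (MAP) kinase signalling: 6 dual-specificity phosphatases (DUSP1, DUSP3, DUSP4, DUSP5, DUSP6 and DUSP10), 2 Sprouty proteins (SPRY2 and SPRY4) and 2 Sprouty-related proteins (SPRED1 and SPRED2). They were taken by name from the 22148 genes of the deposited tables, where each was found by its Ensembl identifier in all 12 libraries. Of the 10, 9 reached a mean normalized count of 20 and were tested among 12939 genes. DUSP4, with a mean of 16.25, did not, and its values are given without a test.

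RNA of the human liver tumour line HepG2 was sequenced in 6 groups of 2 libraries. Cells received a control small interfering RNA (si-NC) or one against CPSF6 (si-CPSF6), grew for 48 h, and were then harvested 0, 3 or 6 h into treatment with 5 µg/ml actinomycin D, which blocks transcription. HepG2 is 1 transformed line, all 12 libraries come from it, the labels name no sequence for either RNA, and the 0 h cells are those harvested at the start of the drug treatment. The labels number the replicates but do not say whether these were separate cultures, so p-values measure the spread between these libraries, which may be technical. CPSF6 is a subunit of cleavage factor I, which binds UGUA sequences upstream of poly(A) sites and helps to choose where an mRNA ends.

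As background, growth factor receptors signal through Ras, Raf and MEK to the MAP kinase ERK, and stress signals run through the kinases JNK and p38. Active ERK induces many of its own inhibitors: DUSPs remove phosphate from the kinases, Sprouty proteins act between the receptor and Raf, and SPRED proteins recruit neurofibromin to switch Ras off. Several of these mRNAs are known to be short-lived, so that the inhibitor fades when transcription stops; AU-rich elements, built from ATTTA repeats in the 3′ untranslated region (UTR), are a known sign of such mRNAs.

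The sequences shown first are stretches of these 3′ UTRs, printed because the results turn on how long each mRNA lasts. They are 5′ to 3′ in the sense of the mRNA, read from GENCODE release 29 on hg38; the authors may have counted on another annotation. Capitals mark the nonamer TTATTTATT in DUSP1 and the pentamer ATTTA in the others. The coordinates are chr5:172768643-172768671 and chr5:172768375-172768403 (minus strand) for DUSP1, chr15:38353345-38353374 (plus strand) for SPRED1, chr5:142313529-142313558 (minus strand) for SPRY4 and chr2:65312601-65312630 (minus strand) for SPRED2.
DUSP1 first nonamer: gggctggtccTTATTTATTtaacttcacc
DUSP1 second nonamer: agaatataccTTATTTATTtttgtgtagg
SPRED1 double pentamer: ttaagaaagcATTTAtATTTAtatgacagc
SPRY4 pentamer: agccacaggatggATTTAggagccactgct
SPRED2 pentamer: accacttctaaaaATTTAgcaatattagaa

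The longest annotated 3′ UTR of DUSP1 is 672 bases with 4 ATTTA matches, or 5.95 per kb. That of SPRED1 is 5585 bases with 24 matches, or 4.3 per kb, against a median of 1.62 per kb over 11531 tested genes with such a UTR. These are the densest of the 10 genes; DUSP10 (3.04), SPRY2 (2.56), SPRY4 (2.12), SPRED2 (1.89) and DUSP3 (1.72) also lay above that median, while DUSP4 (1.51) and DUSP6 (0.495 per kb, 1 match in 2022 bases) lay below it and DUSP5 had none in 1118 bases. The nonamer occurred in DUSP1 (2 matches) and DUSP4 (1 match, not printed) and in 9.05% of the tested genes. TGTA, the DNA spelling of the tetramer that cleavage factor I binds, was densest in SPRY2 (11.5 per kb) and DUSP6 (10.4 per kb, 21 matches) and stood at 7.7 per kb in SPRED1 (43 matches), where the median gene had 4.95. A match describes these letters and is not a site shown to act, and the part of these motifs in the falls below was not tested.

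Promoters of 8 of the 10 genes were matched in the RefSeq table (GRCh38.p14; 250 bases before to 50 after a start), in 12 entries; DUSP4 and DUSP5 had no entry. Those of DUSP1 and SPRY4 are printed, the first because it holds the cAMP response core and the second because SPRY4 had the largest difference that passed the test at 0 h. Capitals mark TGACGT on either strand, which on the other strand reads ACGTCA. The DUSP1 promoter is chr5:172771146-172771445 and that of SPRY4 chr5:142324198-142324497, both on the minus strand.
DUSP1 promoter: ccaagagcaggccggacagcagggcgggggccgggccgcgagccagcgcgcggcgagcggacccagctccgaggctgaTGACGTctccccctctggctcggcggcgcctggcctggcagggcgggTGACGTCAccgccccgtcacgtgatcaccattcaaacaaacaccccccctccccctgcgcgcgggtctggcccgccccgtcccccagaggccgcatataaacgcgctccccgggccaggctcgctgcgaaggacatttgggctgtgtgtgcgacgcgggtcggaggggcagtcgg
SPRY4 promoter: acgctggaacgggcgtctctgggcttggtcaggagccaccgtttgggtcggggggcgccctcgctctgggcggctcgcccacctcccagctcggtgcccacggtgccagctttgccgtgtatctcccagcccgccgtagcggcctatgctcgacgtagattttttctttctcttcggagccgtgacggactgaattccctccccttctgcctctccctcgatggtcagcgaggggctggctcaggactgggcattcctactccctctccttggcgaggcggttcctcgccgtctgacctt

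TGACGT occurred in the promoter of DUSP1 (2 matches) and in 1 of the 2 SPRED2 entries (1 match), and in 7.98% of 35116 promoters of this length. The ETS core CCGGAA was found in 1 of 3 SPRY2 entries, against 17.2% of promoters, and the AP-1 motif TGANTCA in the other SPRED2 entry (2 matches), against 7.71%. Both strands were searched for each, overlapping matches of a motif counting once, and the other entries held none of the 3. GGGCGG, the GC box, occurred in 45.0% of promoters and up to 5 times in an entry of these genes (DUSP3).

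The total normalized count ran from 19133288 to 33352246 per library, and 1 read was worth 0.7036 to 1.398 normalized counts, judged by the spacing of the values. CPSF6 had 2147 and 2082 normalized counts in si-NC and 768 and 718 in si-CPSF6 at 0 h, a log2 difference of -1.51 (SE 0.087; limma, adjusted p = 1.3e-08). Each of the 10 hepatocyte markers was above a mean of 1 TPM (transcripts scaled by length and to the same total in each library), with a summed level of 1.937e+04 to 2.905e+04 TPM. Of 13 stromal, endothelial and immune markers 9 were listed and 3 were above 1 TPM (LYZ, CD68 and PDGFRB; summed 269.9 to 997.2 TPM), and VWF was at or near 0 in all libraries; of 4 biliary markers 3 passed 1 TPM. Their part in the results below was not tested.

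Per length, in TPM, DUSP3 was the most abundant of the 10 in all 6 groups and DUSP4 the least. In si-NC at 0 h the order of mean TPM was DUSP3 (40.4), SPRED2 (18.6), DUSP6 (15.6), SPRY4 (6.99), DUSP1 (5.00), SPRY2 (4.71), SPRED1 (3.19), DUSP5 (1.21), DUSP10 (1.15) and DUSP4 (0.278). Of the neighbours in that order DUSP5 and DUSP10 had overlapping replicates. In si-CPSF6 at 0 h the same genes led, with SPRY4 at a mean of 15.3 TPM, and 4 pairs of neighbours overlapped, among them DUSP6 (20.7 and 11.8 TPM) with SPRY4 (18.6 and 11.9 TPM). By 6 h in si-NC the order had become DUSP3 (30.6), SPRY4 (3.21), SPRED2 (2.26), DUSP6 (0.677) and SPRED1 (0.677), with the other 5 genes at 0.421 TPM or lower.

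**Figure D1:**
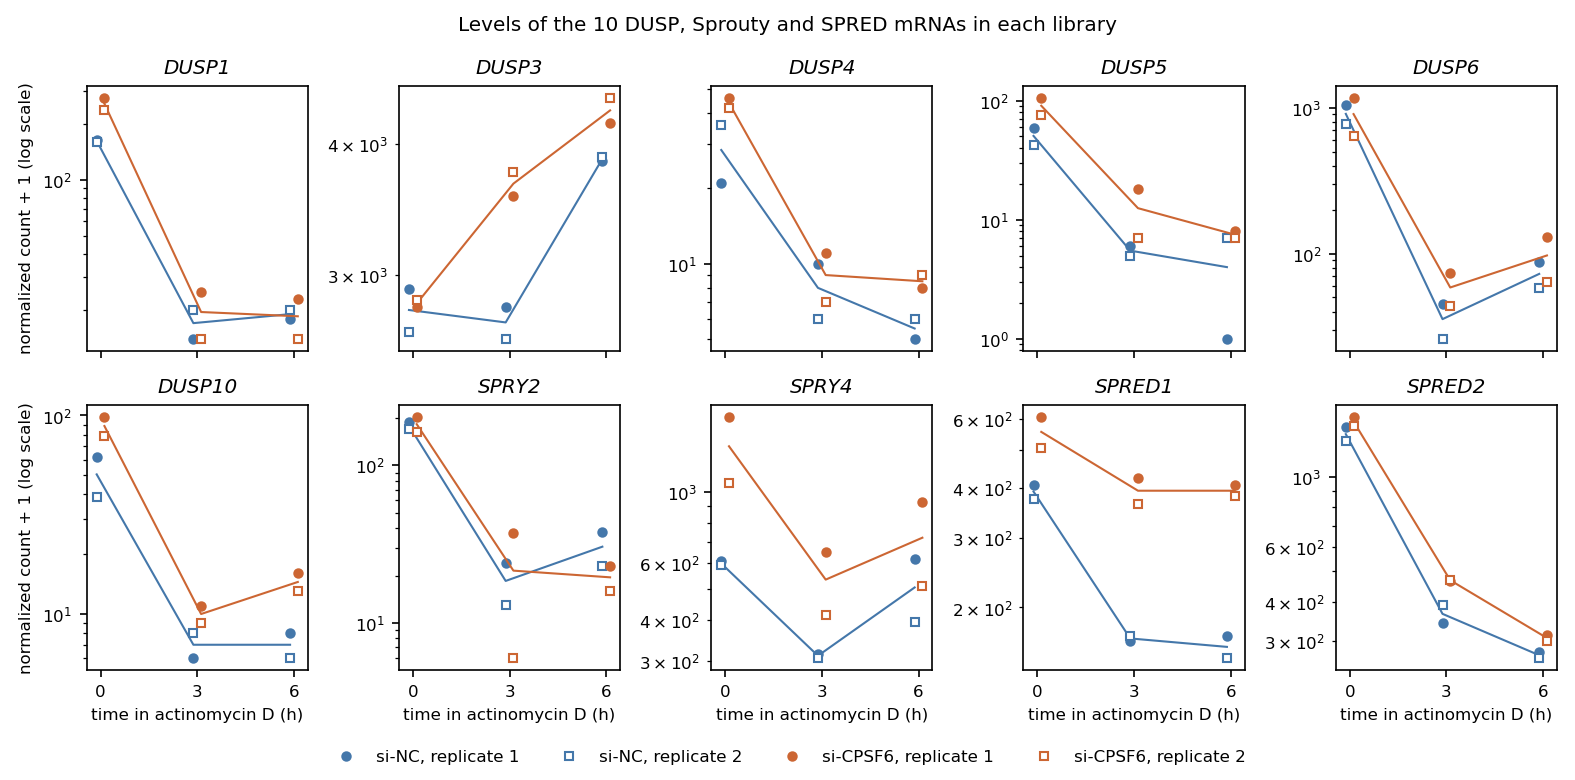
Normalized count plus 1 (log axis, scaled separately for each gene) against hours in actinomycin D, with 1 point per library and lines through the group means. 9 of the 10 genes are lower in every 3 h library than in any 0 h library of the same arm; DUSP3 is not, and DUSP5 is listed at 0 in 1 si-NC library at 6 h.

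The first question was how the 10 mRNAs differ between cells with and without the CPSF6 siRNA. Before the drug, SPRY4 and SPRED1 rose in si-CPSF6 and none of the 9 tested genes fell. At 3 h SPRED1, DUSP3 and SPRED2 were higher, and at 6 h SPRED1 and DUSP10. SPRED1 was therefore the 1 member called at each time, and its difference grew from 0.50 at 0 h to 1.24 at 3 h and 1.31 at 6 h on the log2 scale. These calls, 2, 3 and 2 of 9, all upward, stand against 21.8%, 26.2% and 27.0% of all tested genes called higher at 0, 3 and 6 h, so their number is near the background. Over all genes 50.8% of the calls at 0 h were upward, and 36.1% with spike-in scaling; at 3 h and 6 h it was 47.4% and 48.5%, and 58.3% and 60.4% in the TPM table. All of them come from limma on log2(normalized count + 1), with Benjamini-Hochberg adjustment over the 12939 genes and a threshold of 0.05.

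Counted by library, 7 of the 10 genes had both si-CPSF6 libraries above both si-NC libraries at 0 h, 6 at 3 h and 5 at 6 h, and in the others the groups overlapped. Among the tested genes 37.9%, 36.8% and 36.0% had that order. The median difference over the 9 tested members was 0.50, 0.52 and 0.36 at the 3 times, beside 0.00, -0.03 and -0.02 over the tested genes. In bulk RNA, fewer cells that make an mRNA and less of it per cell cannot be told apart.

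**Figure D2:**
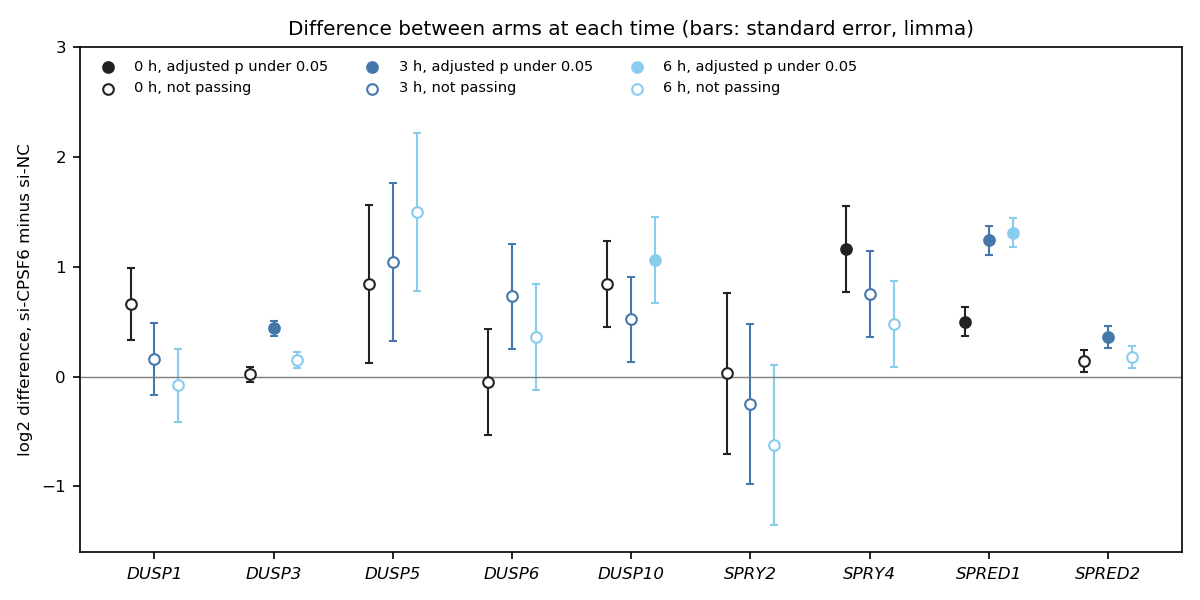
Difference between si-CPSF6 and si-NC in log2(normalized count + 1) for the 9 tested genes at 0, 3 and 6 h; points are limma estimates, bars 1 standard error, and filled points have an adjusted p under 0.05. SPRED1 is filled at each time, SPRY4 at 0 h, DUSP3 and SPRED2 at 3 h, and DUSP10 at 6 h.

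Among the inducible nuclear phosphatases, DUSP1 acts on ERK, JNK and p38. It had 163 and 158 normalized counts in si-NC and 273 and 236 in si-CPSF6 at 0 h. The groups did not overlap at 0 h, yet the difference of 0.66 (SE 0.33) had an adjusted p of 0.12. It passed with a pseudocount of 10 (0.63, adjusted p = 0.042) and with only these groups in the fit (adjusted p = 0.0014). After the drug both arms were at 13 to 24 normalized counts and overlapped, with differences of 0.16 at 3 h and -0.08 at 6 h.

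DUSP4, a nuclear phosphatase related to DUSP1, was the rarest member, at 20 and 35 normalized counts in si-NC and 45 and 41 in si-CPSF6 at 0 h. It stood at 4 to 10 in all 8 later libraries. DUSP5, which is nuclear and specific for ERK, had 58 and 41 normalized counts in si-NC and 104 and 75 in si-CPSF6 at 0 h. The difference of 0.84 (SE 0.72) did not pass the test (adjusted p = 0.37), but did with only these groups in the fit (adjusted p = 0.013). The 3 h libraries had 5 and 4 against 17 and 6, and those of 6 h were listed at 0 and 6 in si-NC and had 7 and 6 in si-CPSF6. The difference of 1.50 at 6 h (SE 0.72, adjusted p = 0.093) rests on the library listed at 0: it was 3.08 with a pseudocount of 0.1 and 0.38 with one of 10, and 2.90 (adjusted p = 0.00098) without the second si-NC library.

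DUSP10 prefers JNK and p38 over ERK. It had 61 and 38 normalized counts in si-NC against 97 and 78 in si-CPSF6 at 0 h, a difference of 0.84 (SE 0.39, adjusted p = 0.094). This 0 h difference passed with a pseudocount of 10 (0.73, adjusted p = 0.028) and without trend and robust settings (adjusted p = 0.033). It also passed with only these groups in the fit (adjusted p = 0.017). By 6 h the counts were 7 and 5 against 15 and 12, and this difference of 1.06 (SE 0.39) passed the test with an adjusted p of 0.03. Both si-CPSF6 libraries were above both si-NC libraries at all 3 times, but the 6 h values are few reads. The 6 h call was lost with a pseudocount of 10 (0.55, adjusted p = 0.074), with spike-in scaling (adjusted p = 0.059), with only these groups in the fit (adjusted p = 0.13), and without the second si-NC or the first si-CPSF6 library at 6 h (adjusted p = 0.14 in each).

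DUSP6 is the cytoplasmic phosphatase specific for ERK and a standard readout of ERK activity. It had 1042 and 769 normalized counts in si-NC and 1163 and 642 in si-CPSF6 at 0 h, so that the arms overlapped (difference -0.05, SE 0.48). After 3 h the counts were 44 and 25 against 72 and 43, and at 6 h 86 and 57 against 129 and 63. The 3 h difference of 0.73 (SE 0.48) did not pass (adjusted p = 0.23). With the replicate number as a block, its standard error fell to 0.16 and the adjusted p to 0.00052, since the first library was the higher of each pair. The gene (chromosome 12, 89347232 to 89353271, minus strand) overlaps an exon of AC024909.2 on the opposite strand. Library kits were directional per the labels, but whether counting used the strand is not given in the sources used here, so reads of the 2 genes may be mixed.

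DUSP3 is a small atypical phosphatase without the kinase-docking domain of the others. It had 2908 and 2642 normalized counts in si-NC and 2791 and 2839 in si-CPSF6 at 0 h, where the arms overlapped. At 3 h it had 2796 and 2604 against 3568 and 3764, a difference of 0.44 (SE 0.07, adjusted p = 7.9e-05) that passed the test. At 6 h it had 3857 and 3886 against 4189 and 4427, and the difference of 0.15 (SE 0.07) did not pass (adjusted p = 0.072). This 6 h difference passed with the replicate block (adjusted p = 0.039) and with median-ratio scaling (0.19, adjusted p = 0.03). It did not pass with spike-in scaling (0.13, adjusted p = 0.52) or in the TPM table (0.20, adjusted p = 0.072). With spike-in scaling the 3 h difference was 0.46 and passed (adjusted p = 0.015).

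SPRY4 (chromosome 5, 142310427 to 142326455, minus strand) inhibits Ras activation downstream of growth factor receptors. It had 607 and 590 normalized counts in si-NC and 1695 and 1062 in si-CPSF6 at 0 h. Both si-CPSF6 libraries were higher, and the log2 difference of 1.16 (SE 0.39) passed with an adjusted p of 0.049. By 3 h the counts were 315 and 305 against 651 and 416. They were 616 and 393 against 930 and 508 at 6 h, so that the arms overlapped at 6 h and not before. The 3 h difference of 0.75 (SE 0.39) did not pass (adjusted p = 0.15), but did with the replicate block (adjusted p = 0.015) and with spike-in scaling (adjusted p = 0.0069).

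The 0 h call of SPRY4 was close to the threshold. It was lost with a pseudocount of 0.1 (adjusted p = 0.051), with no filter (0.08), and in 7 of 12 fits that left out 1 library: any of the 6 si-NC libraries, or the first si-CPSF6 library at 0 h, without which the difference was 0.83 (adjusted p = 0.21). With the replicate block its adjusted p was 0.002 and with spike-in scaling, where the difference was 1.07, 0.00051.

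SPRY2, which binds the adaptor GRB2 and the ubiquitin ligase CBL, showed no difference that passed. It had 187 and 168 normalized counts against 201 and 162 at 0 h. At 3 h it had 23 and 12 in si-NC and 36 and 5 in si-CPSF6, the widest gap between replicates of any member in si-CPSF6. The 3 h difference of -0.25 (SE 0.73) was 1.07 (adjusted p = 0.046) without the second si-CPSF6 library and -1.56 (adjusted p = 0.0092) without the first, so that it was called in opposite directions. The 6 h counts were 37 and 22 against 22 and 15.

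SPRED1 (chromosome 15, 38252326 to 38357249, plus strand) is the SPRED protein mutated in Legius syndrome. It had 407 and 376 normalized counts in si-NC and 604 and 505 in si-CPSF6 at 0 h. At 3 h it had 164 and 168 against 423 and 364, and at 6 h 168 and 148 against 406 and 381. The 3 h and 6 h libraries of si-CPSF6 thus stood close to the 0 h level of si-NC, between 364 and 423, on the deposited scale. In TPM the 6 h values were 0.726 and 0.627 against 1.77 and 1.79.

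For SPRED1 the difference was 0.50 at 0 h (SE 0.13, adjusted p = 0.0055), 1.24 at 3 h (SE 0.13, adjusted p = 1.4e-06) and 1.31 at 6 h (SE 0.13, adjusted p = 6.4e-07). The calls at 3 h and 6 h held under every setting and with any 1 library left out. That at 0 h was lost with spike-in scaling (0.40, adjusted p = 0.1), with the TPM table (0.42, adjusted p = 0.12), and without the second si-NC library (adjusted p = 0.055) or the first si-CPSF6 library (adjusted p = 0.09) of that time.

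SPRED2 is the more abundant SPRED in these cells per length. It had 1440 and 1302 normalized counts against 1553 and 1456 at 0 h, a difference of 0.14 (SE 0.10) that did not pass. At 3 h it had 340 and 389 against 466 and 468, and the difference of 0.36 (SE 0.10) passed with an adjusted p of 0.0059. At 6 h it had 274 and 263 against 312 and 298, a difference of 0.18 (adjusted p = 0.12) that passed only in the TPM table (0.44, adjusted p = 0.047). The groups did not overlap at any time, but the 3 h call was lost with spike-in scaling (adjusted p = 0.081), with the TPM table (0.07, adjusted p = 0.77) and without the first si-NC library at 3 h (adjusted p = 0.077).

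The second question was how far each mRNA fell once transcription was blocked. In si-NC, 7 of the 9 tested genes fell by 3 h and 7 by 6 h, against 25.7% and 30.7% of all tested genes called lower. In si-CPSF6, 8 fell by 3 h and 7 by 6 h, against 22.9% and 27.6%. On this scale DUSP3 rose at 6 h in si-NC and at both times in si-CPSF6, where 48.6%, 43.6% and 49.8% of all tested genes were called higher; at 3 h in si-NC, 45.8% were and no member was. The median change of the 9 was -2.83 at 3 h and -2.59 at 6 h in si-NC, and -2.99 and -2.61 in si-CPSF6, where the median of the tested genes was 0.26, 0.31, 0.25 and 0.35. Comparisons within an arm share their 0 h libraries.

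The scale of these changes depends on the reference. The deposited values have an equal upper quartile in each library, so they show a gene relative to the others. The ERCC spike-in RNA, added to 5 µg of total RNA, rose by 0.711 at 3 h and 1.011 at 6 h in si-NC and by 0.597 and 0.936 in si-CPSF6 on that scale. Scaled to 47 spike-ins, the median tested gene fell by 0.45 and 0.7 in si-NC and by 0.35 and 0.58 in si-CPSF6, and of all calls at 3 h in si-NC 6.9% were upward instead of 64.1% (52.1% with median-ratio scaling, 21.4% in TPM). On that scale, per mass of total RNA and not per cell, 9 of 9 members fell at both times in si-NC, against 49.7% and 59.5% of tested genes, and 8 of 9 in si-CPSF6, against 42.2% and 55.9%.

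DUSP6 fell most at 3 h in si-NC, to 3.81% of its 0 h level (4.22% and 3.25% in the replicate pairs), a change of -4.71 (SE 0.48, adjusted p = 3.1e-05). In si-CPSF6 it kept 6.37% (6.19% and 6.7%). At 6 h it stood at 7.9% and 10.6% as deposited, above its 3 h share in both arms, and with spike-in scaling its share also went from 2.3% to 3.86% in si-NC and from 4.14% to 5.56% in si-CPSF6. These later gains were not tested.

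DUSP1, DUSP5, DUSP10 and DUSP4 had higher mean shares left than DUSP6 at 3 h in both arms, an order that was not tested. DUSP1 kept 9.97% at 3 h and 11.2% at 6 h in si-NC (changes of -3.27 and -3.09, SE 0.33). In si-CPSF6, from a higher start, it kept 7.27% and 6.88% (-3.77 and -3.83).

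DUSP5 kept 9.09% at 3 h and 6.06% at 6 h in si-NC, and 12.8% and 7.26% in si-CPSF6. Its fitted change of -4.23 at 6 h in si-NC ran from -5.97 to -2.22 between pseudocounts of 0.1 and 10, since 1 library is listed at 0. With a pseudocount of 0.1 its falls were no longer called at 3 h in si-NC (adjusted p = 0.086) or at 3 h and 6 h in si-CPSF6 (0.12 and 0.06). DUSP10 kept 12.1% at both times in si-NC, and 10.3% and 15.4% in si-CPSF6. DUSP4, below the filter, kept 25.5% and 16.4% in si-NC, and 18.6% and 17.4% in si-CPSF6, on 4 to 10 normalized counts. None of these 3 genes had more than 17 normalized counts in any library after the drug, so their shares are imprecise.

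SPRY2 fell like the phosphatases, to 9.86% at 3 h and 16.6% at 6 h in si-NC and to 11.3% and 10.2% in si-CPSF6. The 3 h share in si-CPSF6 was 17.9% in one replicate pair and 3.09% in the other. Its fall at 6 h in si-NC (-2.59, SE 0.73, adjusted p = 0.0089) was lost without the second si-NC library of that time (-2.23, adjusted p = 0.068), and that at 3 h in si-CPSF6 (-3.61) with only these groups in the fit (adjusted p = 0.076).

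SPRY4 lasted longer. In si-NC it kept 51.8% at 3 h and 84.3% at 6 h as deposited, and neither change passed (-0.95, adjusted p = 0.063; -0.28, adjusted p = 0.53). The 3 h change passed with the replicate block (adjusted p = 0.0034) and without trend and robust settings (adjusted p = 0.04). It also passed with only these groups in the fit (adjusted p = 6e-06). In si-CPSF6 it kept 38.7% at 3 h, a fall of 1.36 (SE 0.39, adjusted p = 0.017), and 52.2% at 6 h (-0.96, adjusted p = 0.056; 0.0028 with the block). The 3 h call was lost without the first 0 h library (adjusted p = 0.084) or the second 3 h library (adjusted p = 0.091) of si-CPSF6, and with only these groups in the fit (adjusted p = 0.065). With spike-in scaling all 4 changes passed, at 31.6% and 41.2% in si-NC and 25.2% and 27.3% in si-CPSF6. In the TPM table all 4 passed too (-1.49 and -1.12 in si-NC, -1.82 and -1.66 in si-CPSF6). With median-ratio scaling all passed but the 6 h change in si-NC (-0.56, adjusted p = 0.22).

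SPRED2 fell in both arms, most of it in the first 3 h; the step from 3 h to 6 h was not tested. It kept 26.6% at 3 h and 19.6% at 6 h in si-NC (-1.91 and -2.35, SE 0.10), and 31% and 20.3% in si-CPSF6 (-1.68 and -2.30). These 4 changes had the smallest adjusted p of the members, from 1.6e-11 to 4e-09, and the replicate pairs of the 6 h shares lay within 19% to 20.5%.

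SPRED1 kept 42.4% at 3 h and 40.4% at 6 h in si-NC (-1.23 and -1.31, SE 0.13). In si-CPSF6 it kept 71% at both times (-0.49 each, adjusted p = 0.0031 and 0.0026). The replicate shares were 40.3% and 44.7% against 70% and 72.1% at 3 h, and 41.3% and 39.4% against 67.2% and 75.4% at 6 h, with no overlap between the arms. With spike-in scaling it kept 25.9% and 20% in si-NC, and 47% and 37.2% in si-CPSF6. Without the first 0 h library of si-CPSF6 the deposited falls in that arm were no longer called (adjusted p = 0.058 and 0.051).

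DUSP3 was the stable member. In si-NC it kept 97.3% at 3 h (change of -0.04, adjusted p = 0.63) and stood at 140% at 6 h, a rise of 0.48 (SE 0.07, adjusted p = 1.1e-05) on the deposited scale. In si-CPSF6 it stood at 130% and 153%, rises of 0.38 and 0.61. The sign turns with the reference: with spike-in scaling the changes were -0.75 and -0.53 in si-NC, both called, and -0.22 and -0.32 in si-CPSF6, neither called (adjusted p = 0.28 and 0.069). In the TPM table they were -0.57 and -0.40 in si-NC, both called, and -0.11 and -0.14 in si-CPSF6. At 3 h in si-NC the change of DUSP3 was below that of the median tested gene. The values were -0.04 against 0.26 as deposited, -0.75 against -0.45 with spike-in scaling and -0.57 against -0.27 in TPM. On these scales DUSP3 was above that median at 6 h in si-NC and at both times in si-CPSF6.

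**Figure D3:**
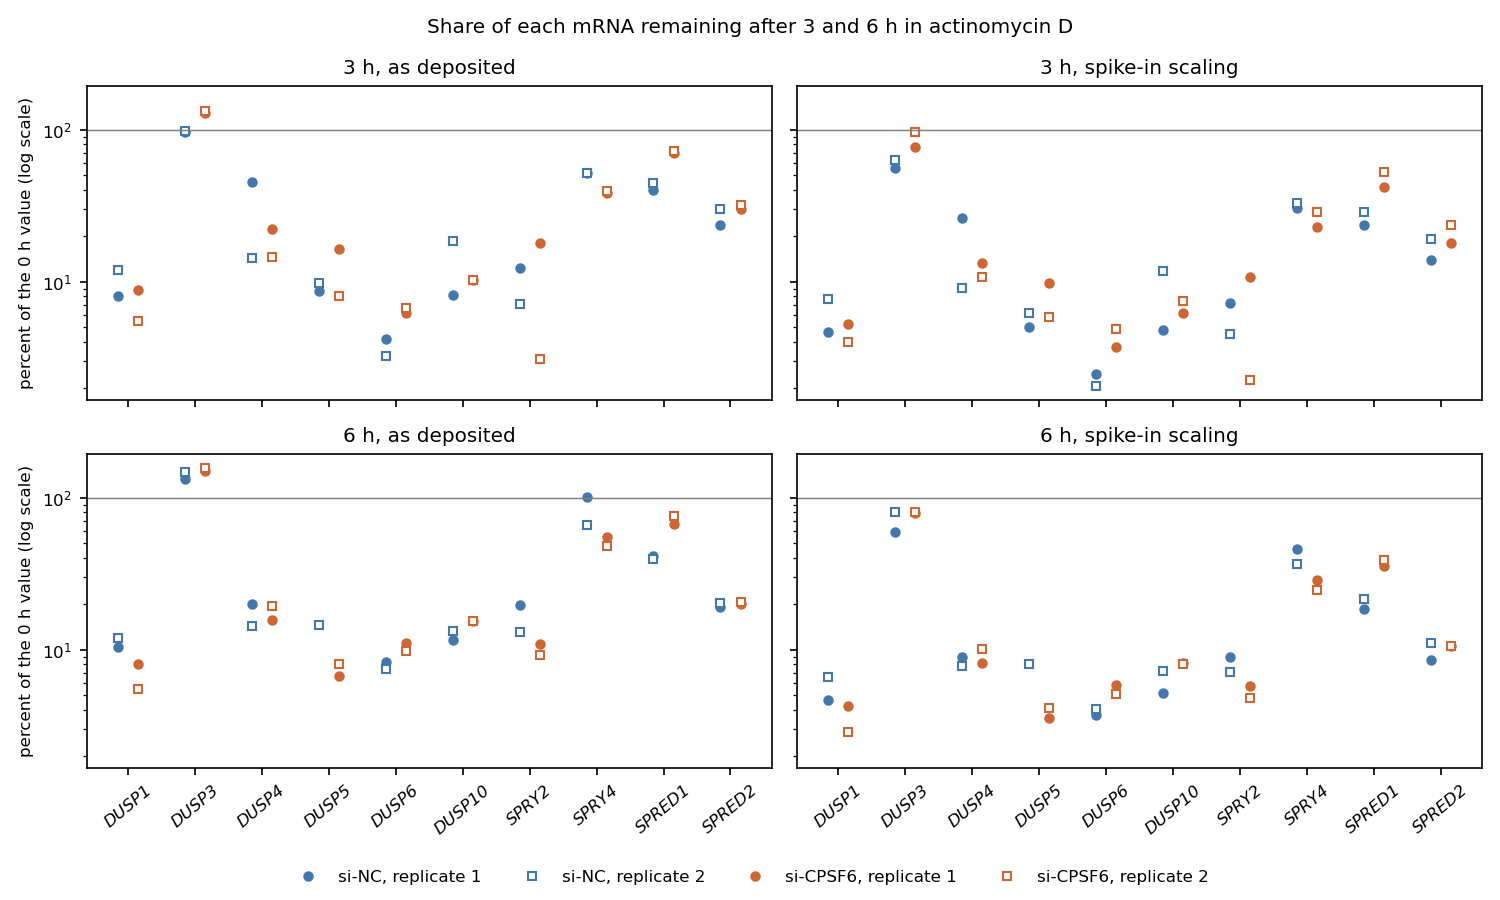
Percent of the 0 h normalized count left after 3 h (top) and 6 h (bottom), as deposited (left) and scaled to the spike-ins (right); log axis, 1 point per replicate pair, line at 100%. DUSP5 in 1 si-NC library at 6 h is listed at 0 and has no point; SPRED1 is higher in si-CPSF6 in all 4 panels, and DUSP3 crosses the line only as deposited.

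The third question was whether the fall itself differs between the arms, tested as the difference of the 2 changes. For the fall to 3 h, 2 of 9 members passed, both with the higher change in si-CPSF6, where 2.99% of tested genes were called, 2.26% upward. For the fall to 6 h, 1 of 9 passed, where 24.4% of tested genes were called, 12.0% upward and 12.4% downward. The share of upward calls over all genes rose with the scaling, from 75.5% to 95.2% at 3 h and from 49.1% to 75.4% at 6 h with spike-ins, and to 94.6% and 65.9% in TPM. SPRED1 passed at both times and DUSP3 at 3 h.

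For SPRED1 the change to 3 h was 0.74 higher in si-CPSF6 (SE 0.18, adjusted p = 0.038) and that to 6 h 0.82 higher (SE 0.18, adjusted p = 0.0044). The 6 h value passed in each of the 12 fits with 1 library left out and with spike-in scaling (0.89, adjusted p = 0.022), but not in the TPM table (0.86, adjusted p = 0.061). The 3 h value was of like size under the other scalings, 0.85 with spike-ins and 0.88 in TPM, but did not pass there (adjusted p = 0.11 and 0.22), nor with no filter (0.062) or without trend and robust settings (0.078). It was also lost in 7 of the 12 fits with 1 library left out, those without any of the 4 si-NC libraries at 0 or 3 h, either si-CPSF6 library at 0 h, or the first at 3 h (adjusted p from 0.065 to 0.18).

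For DUSP3 the change to 3 h was 0.42 higher in si-CPSF6 (SE 0.10, adjusted p = 0.033), and the change to 6 h 0.13 higher (adjusted p = 0.36). The 3 h call was lost with spike-in scaling (0.53, adjusted p = 0.37), in the TPM table (adjusted p = 0.14), with no filter (0.054), without trend and robust settings (0.11), and in 7 of 12 fits with 1 library left out, those without the first si-NC library at 0 h, either si-NC library at 3 h, or any si-CPSF6 library at 0 or 3 h (adjusted p from 0.056 to 0.17).

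The other 7 tested genes did not pass at either time. DUSP6 had the largest 3 h value among them, 0.78 (SE 0.67, adjusted p = 0.63), and passed with the replicate block (adjusted p = 0.037). Values for DUSP1 were -0.50 at 3 h and -0.74 at 6 h (SE 0.46), for SPRY4 -0.42 and -0.68 (SE 0.55) and for SPRY2 -0.27 and -0.65 (SE 1.03). SPRED2, with the narrowest error of these 7, had 0.22 and 0.05 (SE 0.14). In the other 6 the standard error was 0.46 to 1.03, against 0.18 for SPRED1, so that a difference as large as that of SPRED1 was less than 2 standard errors there.

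The replicates of a group differed in a patterned way. DUSP6, SPRY2 and SPRY4 were higher in the library numbered 1 in 6 of 6 groups, as 8.33% of tested genes were. The median difference was 0.76 for DUSP6 (0.44 to 1.02), 0.62 for SPRY2 (0.15 to 2.62) and 0.65 for SPRY4 (0.04 to 0.87) on the log2 scale. DUSP5, DUSP10 and SPRED1 were higher there in 5 groups, DUSP1 and SPRED2 in 4, DUSP4 in 3 and DUSP3 in 2. The labels name no culture, day or batch behind the numbers, and the source of the pattern was not tested. It is the spread that the replicate block removes for DUSP6 and SPRY4.

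**Figure D4:**
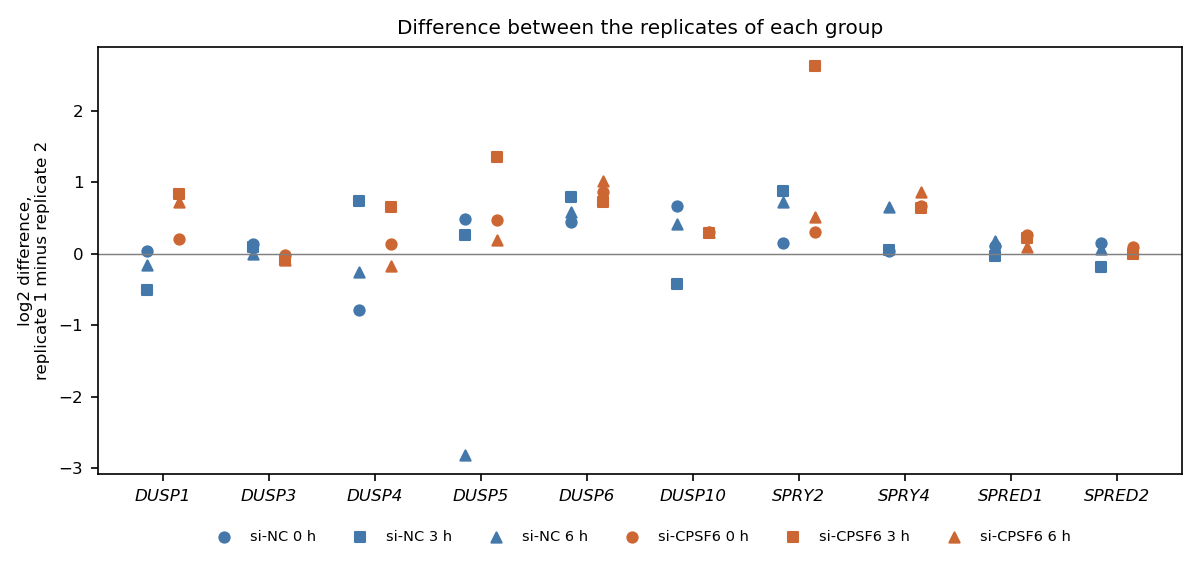
Difference in log2(normalized count + 1) between the libraries numbered 1 and 2 for each gene and group (colour for arm, shape for time). All 6 points of DUSP6, SPRY2 and SPRY4 lie above 0; the lowest point is DUSP5 in si-NC at 6 h (-2.81), where 1 library is listed at 0.

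Because CPSF6 takes part in 3′ end choice, the apparent transcript length was also compared: the log2 ratio of normalized count to TPM, centred on the spike-ins, whose length is fixed. At 0 h none of the 9 members passed, where 6.52% of 12923 genes did, 6.18% shorter and 0.34% longer in si-CPSF6. By limma 0 of the 9 had an unadjusted p under 0.05. The values were close to 0 for SPRED1 (-0.004, SE 0.065), SPRY4 (0.001, SE 0.048), DUSP1 (-0.016, SE 0.013) and DUSP3 (0.013, SE 0.021). DUSP6 (-0.132, SE 0.118), SPRED2 (-0.053, SE 0.144) and DUSP10 (-0.251, SE 0.541) were less certain; DUSP10 ranged from 0.51 to 1.77 over the libraries. At 3 h and 6 h, where length was not tested, the differences were 0.334 and -0.213 for SPRED2, 0.358 and -0.188 for DUSP6 and 0.026 and -0.364 for DUSP10, and from -0.11 to 0.078 in the other 6 tested genes. SPRED2 stood at 2.11 and 2.30 in si-NC against 2.55 and 2.53 at 3 h, and at 2.25 and 2.47 against 1.94 and 2.36 at 6 h, so its counts and TPM differ between the arms by unlike amounts at these times. Centred on the median gene instead, DUSP1 (0.083, adjusted p = 0.0042) and DUSP3 (0.113, adjusted p = 0.007) passed. This measure averages over the isoforms that RSEM assigns and does not locate a poly(A) site.

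Across the 12 libraries most members ran in parallel. Pearson correlations of log2 values among DUSP1, DUSP6, DUSP10 and SPRED2 were 0.90 to 0.96, and SPRY2 with DUSP6 reached 0.94. SPRY4 and SPRED1 stood apart (0.5 to 0.79 with the members other than DUSP3), and DUSP3 ran opposite or flat (-0.67 to -0.04). These correlations rest on 6 groups that differ by the drug, so they describe the shared fall. By the same measure over 10370 genes, the genes most like each member were FBXO30 and PNRC1 for DUSP1 (0.991 and 0.99), ITPRIPL2 and KBTBD6 for DUSP6 (0.983 and 0.982), and FOXN2 and ZBTB39 for DUSP10 (0.99 and 0.988). For SPRED2 they were WEE1 and FAM83D (0.998 and 0.997), for SPRED1 ZBTB38 and MED1 (0.993 and 0.987), and for SPRY2 LCMT2 and HES1 (0.959 and 0.955). DUSP5 was closest to CEBPB and DBF4 (0.976 and 0.973), DUSP3 to PRPF38A and EXOC5 (0.964 and 0.953), and SPRY4 to GDF15 and SRGAP2 (0.937 and 0.934). Few genes exceeded 0.9 with SPRY4 (0.116% of those compared), against 9.97% with SPRED2.

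The rest of the pathway moved in both directions. Among 13 tested relatives of the same families, 5 were higher in si-CPSF6 at 0 h and none lower, where 21.8% of all tested genes were higher and 21.1% lower: DUSP8, which acts on JNK and p38, rose by 1.02, SPRY1 by 0.59, DUSP11, an RNA phosphatase, by 0.43, DUSP22 by 0.39 and DUSP14 by 0.27. With spike-in scaling 1 of the 5 was still called, where 1270 of 12939 tested genes were higher and 2248 lower. SPRY1 had 560 and 447 normalized counts against 865 and 657 at 0 h, and at 6 h the arms overlapped (202 and 177 against 208 and 170). DUSP14 had 752 and 721 against 923 and 851 at 0 h but 243 and 214 against 703 and 691 at 6 h, and its change to 6 h was 1.34 higher in si-CPSF6 (SE 0.134, adjusted p = 8.5e-06). DUSP11 showed the same order (1.14, SE 0.188, adjusted p = 0.00056). By this change to 6 h, 3 of the 13 relatives were higher in si-CPSF6 and 1 lower, where 12.0% of all tested genes were higher and 12.4% lower. The lower one was DUSP16 (-0.55, SE 0.129, limma, adjusted p = 0.0067), and SPRY1 was at -0.60 without passing (adjusted p = 0.064). With spike-in scaling 2 were higher and 0 lower, where 798 of all tested genes were higher and 261 lower.

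Among 6 tested feedback inhibitors of other families, 2 were higher and 2 lower at 0 h, against the same 21.8% and 21.1%. ERRFI1, an inhibitor of the epidermal growth factor receptor, had 6927 and 5930 normalized counts in si-NC and 12662 and 11250 in si-CPSF6 at 0 h, and 519 and 536 against 2927 and 2693 at 6 h. Its change to 6 h was 1.51 higher in si-CPSF6 (SE 0.149, adjusted p = 1.3e-05). By that measure 3 of the 6 were higher and 0 lower, where 12.0% of all tested genes were higher and 12.4% lower. CBL rose by 0.58 at 0 h, while PEA15, which holds ERK in the cytoplasm, fell by 0.73 and SOCS3 fell by 1.56. The change of SOCS3 to 6 h was 2.14 higher in si-CPSF6 (SE 0.639, limma, adjusted p = 0.024). Its 6 h counts were low, at 4 and 4 in si-NC against 7 and 6 in si-CPSF6.

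Of the 31 tested genes of the ERK cascade itself, 8 were higher and 7 lower in si-CPSF6 at 0 h, and of 14 in the JNK and p38 cascades 3 were higher and 4 lower, all shares near the 21.8% higher and 21.1% lower of all tested genes. MAPK3, which encodes ERK1, was lower by a log2 difference of -0.21 (SE 0.066, adjusted p = 0.017) that was not called with spike-in scaling (adjusted p = 0.14). FGFR3, a growth factor receptor, rose by 0.86 and PTPN11, a phosphatase that promotes Ras signalling, by 0.59. MAPK12 rose by 0.80, while MAPK14, the main p38 kinase, fell by 0.39.

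Of 14 tested genes known to be induced by ERK, 6 were higher and 1 lower at 0 h, against 21.8% and 21.1% of all tested genes, with a median difference of 0.68 beside 0.00 over all tested genes. AREG, a growth factor of the epidermal family, rose by 1.25 (SE 0.104), PHLDA1 had 1848 and 2057 normalized counts against 3841 and 3695, and MYC 3230 and 3161 against 5448 and 4714. CCND1, the gene of cyclin D1, was lower (11571 and 13039 against 7908 and 8492). EGR1 had 75 and 62 against 131 and 106, which did not pass (0.78, adjusted p = 0.08). By the change to 6 h, none of these 14 was higher in si-CPSF6 and 5 were lower. Of all tested genes 12.0% were higher and 12.4% lower. Among the 5 was AREG (-0.96, limma, adjusted p = 0.00031). With spike-in scaling 3 of the 14 were called lower and none higher, where 261 of all 12939 tested genes were lower and 798 higher.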

How the data were processed

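The submitters' processing notes name STAR, RSEM and the build hg38; versions, annotation and use of strand were not given in the sources used here. Of the 2 deposited tables, 1 holds a score: normalized counts, which the authors had brought to the same upper quartile in all 12 libraries and rounded, so tests for raw counts were not run. The authors also deposited TPM, used for levels, an alternative fit (pseudocount 0.1, mean of at least 1) and apparent length.

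Groups were compared with limma 3.58.1 under R 4.3.3 on log2(normalized count + 1), using its trend and robust options. The fit held 6 group means, no block and 6 residual degrees of freedom. It covered 12939 genes with a mean of at least 20, with Benjamini-Hochberg adjustment in each comparison and a threshold of 0.05. The code was tested on simulated data. Folds on this scale understate the change of low genes.

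Replicates correlated at 0.9849 or more and differed beyond counting noise. Libraries of the same number deviated together (correlations of 0.11 to 0.24 over 15 pairs of groups), so they were treated as pairs in the replicate block; the labels do not state a pairing. Alternatives were pseudocounts of 0.1 and 10, other filters and scalings, the TPM table, limma without trend and robust settings, the replicate block, only the groups compared, another centring of length, and each library left out.

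Members, pathway lists and tests were chosen with earlier results of these data known. Besides the members, the text names the genes most correlated with each over the 12 libraries (mean of at least 100) and, per pathway list, up to 3 genes with the smallest p in a comparison. EGR1 and MAPK3 were named in any case. Not every gene that the rule allows is reported here; FOS, also allowed, was below the filter. Sequences are from GENCODE release 29 (hg38) and RefSeq (GRCh38.p14).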

Additional observations from a re-analysis of the deposited data

Results flagged for a closer look

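The results in which the 2 arms differed, by a test of the difference of their changes in actinomycin D, were those of SPRED1 and DUSP3. SPRED1 fell by 0.74 less on the log2 scale from 0 to 3 h in si-CPSF6 than in si-NC (limma, adjusted p = 0.038), and by 0.82 less from 0 to 6 h (adjusted p = 0.0044). In DUSP3 the change from 0 to 3 h was 0.42 higher in si-CPSF6 (adjusted p = 0.033). The 6 h value of SPRED1 held with spike-in scaling (adjusted p = 0.022) and the 3 h values did not (0.11 for SPRED1 and 0.37 for DUSP3). In the TPM table none of the 3 values passed (adjusted p = 0.061 for SPRED1 at 6 h). The 3 h calls also moved with single libraries left out. Groups of 2 libraries are too small to test single libraries as outliers.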

How the results depend on the processing

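Each library left out in turn, and the other settings run, kept the direction of most member values, and where a call or a sign moved the cause was not tested unless fewer genes or libraries entered by construction. Of the 9 members, 2 were called between the arms at 0 h; 1 with a pseudocount of 0.1, with no filter, with spike-in scaling and in the TPM table, 4 with a pseudocount of 10, 5 with only the groups compared, and 0 to 2 with a library left out. At 3 h 3 were called, 5 with the replicate block, and 2 to 4 with a library left out. At 6 h 2 were called, 1 with a pseudocount of 10, a filter at 100, spike-in scaling or only the groups compared, and 1 to 2 with a library left out. A filter at 100 leaves 5 members to test, of which 3 and 4 were called for the 3 h and 6 h changes in si-NC (7 and 8) and 5 and 5 in si-CPSF6 (9 and 8); with a library left out these ran from 7 to 8 in si-NC and 7 to 9 in si-CPSF6. The difference of the changes to 3 h had 2 calls, 0 with no filter, spike-in scaling, the TPM table or limma without trend and robust settings (2 had an unadjusted p under 0.05 in each), and 0 to 2 with a library left out; that to 6 h had 1, 0 in the TPM table (2 of 7 at an unadjusted p under 0.05) and 1 throughout with a library left out. Apparent length had 0 calls, 2 when centred on the median gene and 0 with any library left out (limma, 0 at an unadjusted p under 0.05). The replicate block changed no other call than those printed beside the results. No share over all genes is given here for the pseudocounts, the other filters, only the groups compared or limma without trend and robust settings. Nor is one given for the median-gene centring of length. Member counts under these settings therefore have no background to be read against.

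Signs that turned were mostly of values near 0. With spike-in scaling and in the TPM table, the 0 h difference was -0.073 and -0.062 for DUSP3 and -0.069 and -0.019 for SPRY2, and in TPM 0.011 for DUSP6. DUSP3 changed by -0.529 and -0.400 by 6 h in si-NC, by -0.216 and -0.108 by 3 h in si-CPSF6 and by -0.323 and -0.141 by 6 h in si-CPSF6. The arm difference of the change was -0.221 (3 h) and -0.358 (6 h) for DUSP5 and -0.179 (6 h) for DUSP10 with a pseudocount of 10, and at 3 h in TPM 0.002 for SPRY2 and -0.052 for SPRED2. Lengths centred on the median gene were 0.083 for DUSP1, 0.081 for DUSP5, 0.074 for SPRY2, 0.096 for SPRED1 and 0.046 for SPRED2.

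With single libraries left out, the difference between arms ran from -0.047 to 0.091 for DUSP3, -0.479 to 0.377 for DUSP6 and -0.129 to 0.18 for SPRY2 at 0 h, from -0.257 to 0.579 for DUSP1 and -1.558 to 1.067 for SPRY2 at 3 h, and from -0.439 to 0.278 for DUSP1 and -0.15 to 0.872 for DUSP6 at 6 h. In si-NC the change of DUSP3 by 3 h ran from -0.108 to 0.03 and that of SPRY4 by 6 h from -0.605 to 0.042. The arm difference of the change ran at 3 h from -0.49 to 0.873 for DUSP5, -0.652 to 0.017 for DUSP10 and -1.583 to 1.041 for SPRY2, and at 6 h from -0.747 to 2.06 for DUSP5, -0.1 to 0.923 for DUSP6, -0.116 to 0.553 for DUSP10 and -0.024 to 0.121 for SPRED2. Lengths ran from -0.027 to 0.029 for SPRY4, -0.081 to 0.074 for SPRED1 and -0.122 to 0.015 for SPRED2. Depth limits DUSP1, DUSP4, DUSP5, DUSP10 and SPRY2 after the drug. There a read is worth 0.9306 to 1.398 normalized counts, and differences within a few reads were not detectable.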
